A study of Mus musculus with 12 samples.

Results

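The genes described here are 7 enzymes of cholesterol synthesis (Hmgcs1, Idi1, Fdps, Fdft1, Sqle, Lss and Cyp51) and Insig1, a sensor that restrains the pathway. They were chosen by symbol, and all 8 were found among the 56953 genes of the count table. None of the 8 takes up cholesterol, so uptake was read from a separate list. The mice were C57BL/6J females aged 8 weeks, and RNA came from their bone marrow. In the study's account they carried Rank cre/+;R26.eYFP fl/+, in which Cre made from the Rank locus switches on eYFP permanently in embryonic macrophages and their progeny. The 12 libraries form 4 groups of 3: eYFP+ macrophages, eYFP- macrophages (adult-derived by the same account), Ly6Chi monocytes and Ly6Clo monocytes. The macrophages were sorted as F4/80hi cells, and eYFP- cells include any embryonic macrophage in which the reporter did not recombine. Nothing in the labels says that the 3 replicates of a group came from separate mice, so the p-values measure only the spread between these samples.

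Cells build cholesterol from acetyl-CoA through mevalonate, farnesyl diphosphate, squalene and lanosterol. When sterols run low, SCAP carries the transcription factor SREBP2 from the endoplasmic reticulum to the Golgi, where it is cut and released to switch on these enzymes. When sterols are plentiful, INSIG1 holds SCAP back in the endoplasmic reticulum. Macrophages also receive much cholesterol from the cells and lipoproteins they engulf, release it in lysosomes and export it through ABCA1 and ABCG1 under control of the oxysterol receptor LXR.

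The upstream sequences are shown because SREBP2 works at such sites together with the CCAAT-binding factor NF-Y. Of the 8 genes, 5 had an entry in the RefSeq promoter table (build GRCm38.p6, which is not the build of the counts), and Sqle, Fdps and Fdft1 had none. The 250 bases before the annotated start are printed 5′ to 3′ along the gene for Hmgcs1, the gene that varied least across the libraries, for Lss, which differed most between macrophages and monocytes, and for Insig1, the most abundant of the 8. Capitals mark matches on either strand to CCAAT (its reverse complement reads ATTGG) and to TCACNCCAC, a form of the sterol response element.
Hmgcs1, chr13:119690101-119690350, plus strand: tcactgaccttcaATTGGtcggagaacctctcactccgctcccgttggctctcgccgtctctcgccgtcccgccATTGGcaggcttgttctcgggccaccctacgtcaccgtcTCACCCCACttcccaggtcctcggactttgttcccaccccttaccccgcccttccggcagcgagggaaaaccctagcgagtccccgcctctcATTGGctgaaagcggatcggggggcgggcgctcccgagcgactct
Lss, chr10:76531355-76531604, plus strand: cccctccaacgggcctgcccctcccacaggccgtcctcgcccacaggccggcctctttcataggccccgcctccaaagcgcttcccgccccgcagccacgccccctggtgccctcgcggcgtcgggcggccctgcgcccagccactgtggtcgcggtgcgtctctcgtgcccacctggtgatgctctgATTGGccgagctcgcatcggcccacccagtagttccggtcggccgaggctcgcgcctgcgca
Insig1, chr5:28071162-28071411, plus strand: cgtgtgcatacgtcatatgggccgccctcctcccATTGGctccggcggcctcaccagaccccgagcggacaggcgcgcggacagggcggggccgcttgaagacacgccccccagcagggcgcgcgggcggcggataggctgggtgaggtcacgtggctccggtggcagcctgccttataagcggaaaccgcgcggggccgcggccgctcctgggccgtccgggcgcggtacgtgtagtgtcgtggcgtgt
CCAAT was found before all 5 starts, against 33.8% of 32851 promoters in the table, and TCACNCCAC before 1 of the 5, that of Hmgcs1, against 1.05%. The sterol response element match of Hmgcs1 starts 137 bases before the start site, with CCAAT matches at 237, 176 and 45 bases. Lss had a single CCAAT match, at 62 bases, and Insig1 a single one, at 216 bases. These matches are letters in a window and were not tested for binding.

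Total counts ran from 26390927 to 48618187 per library. Ly6Clo replicate 2 was the shallowest, had the fewest genes with a count (16434, against 21330 to 27634 elsewhere) and was least like its group, with a mean Pearson's r of 0.797 to its group's other libraries across genes on log2 normalised counts. eYFP+ replicate 1 was the least like the others among the macrophages (0.909, against 0.934 to 0.954). Values without both are given beside some of the members' results. All 6 macrophage identity genes, Vcam1 and Mrc1 among them, were higher in macrophages, and the monocyte genes Ccr2, Nr4a1 and Spn were lower. Erythroid transcripts were higher in the macrophage libraries too. The 11 erythroid genes summed to 9016 to 14520 TPM (a length-corrected measure of a transcript's share of the library) in eYFP+ and 22467 to 35322 TPM in eYFP- macrophages, against 361 to 1411 TPM in monocytes. The 10 neutrophil and granulocyte precursor genes summed to 6758 to 23981 TPM in monocytes and to 123 to 2704 TPM in macrophages (6 of 10 lower in macrophages, and 4 of 10 higher in Ly6Chi than in Ly6Clo cells), and 9 lymphocyte genes to 544 to 1340 and 21.3 to 125 TPM. The lymphocyte sum was mostly Ighm (means of 541 and 879 TPM in Ly6Chi and Ly6Clo monocytes), the 1 gene of that list that was lower in macrophages, while 3 of the 9 were higher. By DESeq2, 35.4% of all genes were called between macrophages and monocytes and 8.62% between the monocyte groups. The part of these cells in the results was not tested. In bulk RNA, fewer cells expressing a gene and less RNA per cell cannot be told apart.

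All 8 genes were detected in all 12 libraries, at levels that differed more between genes than between cell groups. On the length-corrected TPM scale the mean over 12 libraries was 37.6 for Insig1, 20.3 for Hmgcs1, 16.4 for Cyp51, 12.5 for Fdps, 8.38 for Sqle, 4.25 for Fdft1, 4.14 for Lss and 1.60 for Idi1. The summed level of the 8 was 116 ± 27.7 TPM (SD, n = 3) in eYFP+ macrophages, 120 ± 4.27 in eYFP- macrophages, 99.3 ± 15.3 in Ly6Chi monocytes and 85.5 ± 26.5 in Ly6Clo monocytes. The library ranges of all 4 groups overlapped with at least one other group, and Ly6Clo replicate 2 had the lowest sum, 57.4 TPM.

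**Figure D1:**
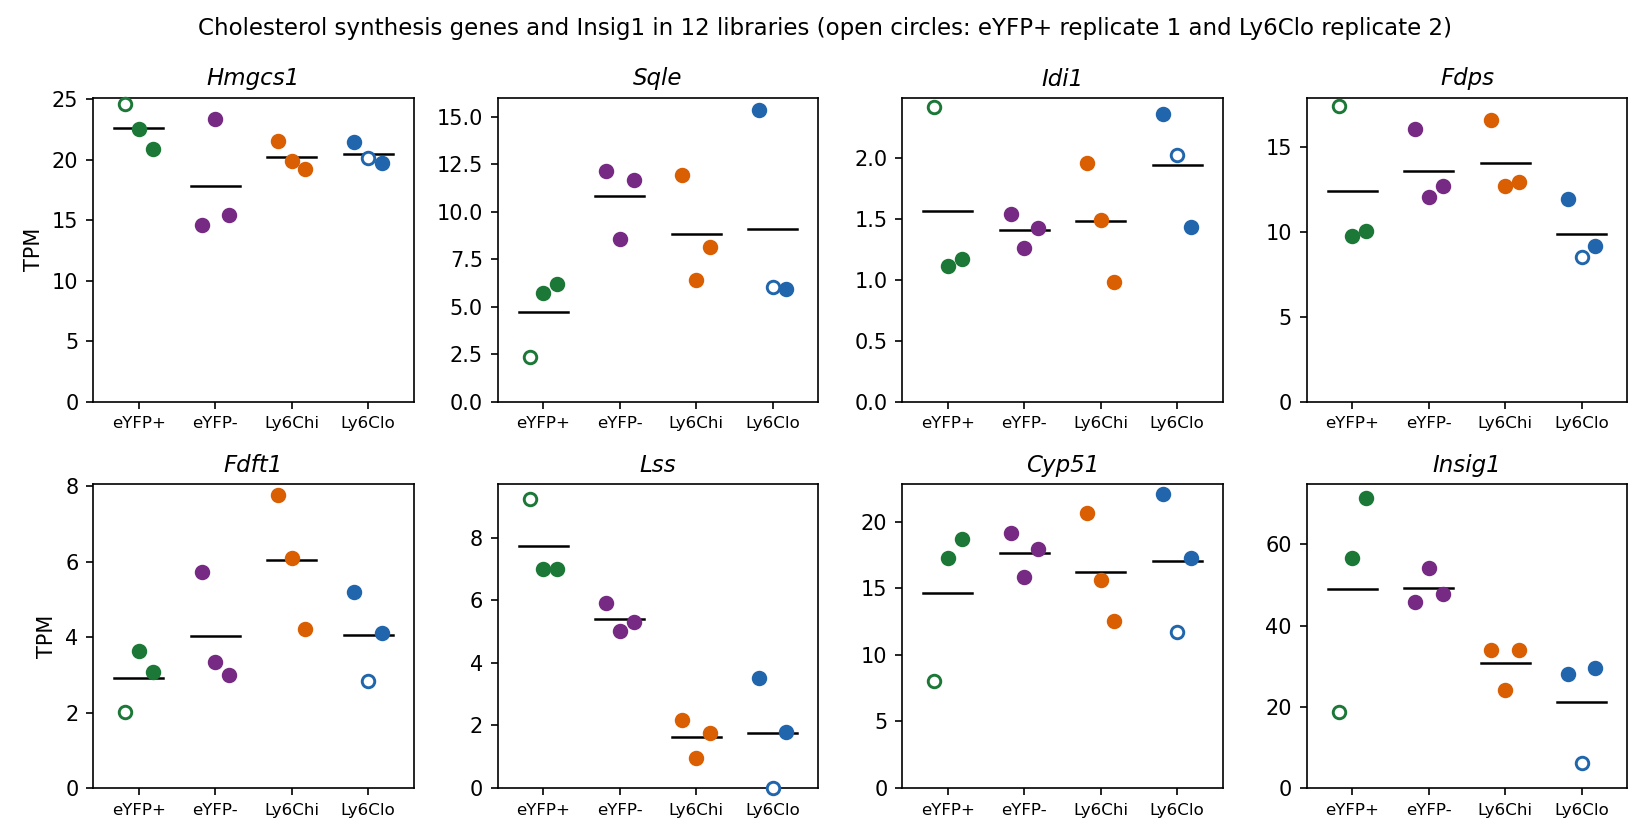
TPM of the 8 genes (vertical axes, from 0) in each library of the 4 groups (horizontal axes), with 1 circle per library and a line at the group mean. Lss separates macrophages (5.01 to 9.24 TPM) from monocytes (0.0131 to 3.51 TPM), whereas Hmgcs1 stays between 14.6 and 24.6 TPM in all groups.

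Taking the pathway in order, Hmgcs1, which makes HMG-CoA in the cytosol, was the steadiest. It stood at 24.6, 22.5 and 20.9 TPM in eYFP+ macrophages, at 14.6, 23.4 and 15.4 in eYFP- macrophages, at 21.6, 19.9 and 19.3 in Ly6Chi and at 21.5, 20.1 and 19.7 in Ly6Clo monocytes. The coefficient of variation of its normalised count over all libraries was 15.2%, the smallest of the 8, and the largest was 70.9% for Lss. Idi1, which interconverts the isoprenoid building blocks, was low everywhere, from 0.986 to 2.42 TPM, with overlapping groups. Fdps, which joins those blocks into farnesyl diphosphate, ran from 8.53 to 17.4 TPM. All 3 Ly6Chi libraries of Fdps (16.6, 12.7 and 12.9 TPM) lay above all 3 Ly6Clo libraries (11.9, 8.53 and 9.14 TPM).

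The steps from farnesyl diphosphate to lanosterol varied more. Fdft1, squalene synthase and the first step committed to sterols, was at 2.01, 3.62 and 3.09 TPM in eYFP+ macrophages and at 5.72, 3.35 and 3.0 in eYFP- macrophages. In monocytes it was at 7.77, 6.11 and 4.22 TPM in Ly6Chi and at 5.20, 2.84 and 4.12 in Ly6Clo cells. The eYFP+ libraries thus lay below all Ly6Chi libraries and overlapped the other groups. Sqle, squalene epoxidase, was lowest in eYFP+ macrophages, at 2.33, 5.73 and 6.18 TPM, against 12.2, 8.59 and 11.7 in eYFP- macrophages. It was at 12.0, 6.43 and 8.15 TPM in Ly6Chi and at 15.3, 6.03 and 5.94 in Ly6Clo monocytes. On TPM the eYFP+ libraries lay below all eYFP- and all Ly6Chi libraries, while 2 Ly6Clo libraries fell within their range.

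Lss, which closes squalene epoxide into the sterol ring system as lanosterol, had another order. It stood at 9.24, 6.99 and 7.0 TPM in eYFP+ and at 5.90, 5.01 and 5.31 in eYFP- macrophages, with no overlap between them. In monocytes it stood at 2.16, 0.969 and 1.77 TPM in Ly6Chi and at 3.51, 0.0131 and 1.78 in Ly6Clo cells. The value of 0.0131 TPM is 1 count, in Ly6Clo replicate 2. Cyp51, the demethylase that acts on lanosterol, differed little, from 8.07 TPM in eYFP+ replicate 1 to 22.1 in Ly6Clo replicate 1, with all groups overlapping. Insig1 was at 18.8, 56.7 and 71.5 TPM in eYFP+ macrophages, at 45.9, 54.1 and 47.7 in eYFP- macrophages, at 34, 24.2 and 34.1 in Ly6Chi monocytes and at 28.1, 6.08 and 29.6 in Ly6Clo monocytes. Except for eYFP+ replicate 1, every macrophage library was above every monocyte library.

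Between macrophages and monocytes, 1 of the 8 genes differed: Lss was higher in macrophages, while 7 did not pass the test. Across all genes, 35.4% of 22385 tested were called in this contrast at an adjusted p under 0.05. The log2 fold change of Lss, from the normalised counts, was 1.87 ± 0.64 (SE), a 3.66-fold difference (95% interval on the log2 scale 0.62 to 3.12), with DESeq2 adjusted p = 0.0119. By edgeR, which called 35.6% of the genes it tested, Lss had adjusted p = 0.0524 and no gene of the 8 was called (2 had an unadjusted p under 0.05, against 3 by DESeq2). Without Ly6Clo replicate 2, in which Lss had 1 count, its log2 difference was 1.53 and DESeq2 adjusted p = 2.99e-07. Lss was called in 20 of 21 alternative settings of this contrast, all but edgeR.

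Insig1 and Fdft1 came nearest to the threshold among the others, in opposite directions. Insig1 had a mean of 2516 normalised counts in macrophages and 1443 in monocytes, a log2 difference of 0.83 ± 0.39 (DESeq2 adjusted p = 0.082). Fdft1 had 249 in macrophages and 385 in monocytes, a log2 difference of -0.62 ± 0.29 (DESeq2 adjusted p = 0.0847). Both calls turned on single libraries. Insig1 passed without eYFP+ replicate 1 (adjusted p = 0.0192) or without Ly6Clo replicate 3 (0.0443), and Fdft1 without eYFP- replicate 1 (0.00869) or without Ly6Clo replicate 2 (0.0189), all by DESeq2. Without both libraries that stand apart, 3 of the 8 were called by DESeq2: Lss (log2 difference 1.42, adjusted p = 8.76e-07) and Insig1 (0.75, adjusted p = 4.51e-06) were higher in macrophages, and Fdft1 (-0.67, adjusted p = 0.0389) was lower.

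The remaining 5 genes showed small differences whose 95% intervals include 0. The log2 difference was -0.12 for Hmgcs1 (interval -0.45 to 0.21), 0.07 for Fdps (-0.44 to 0.58) and -0.15 for Cyp51 (-0.66 to 0.36). These 3 genes had the narrowest intervals of the 8. Without both libraries that stand apart, Fdps was at -0.22, on the other side of 0, and Idi1 at -0.55 (DESeq2 adjusted p = 0.132). For Idi1 (-0.26, interval -0.92 to 0.39) and Sqle (-0.42, interval -1.08 to 0.24) the data leave a wider range. The median log2 difference of the 8 was -0.14, against 0.08 over all genes tested.

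**Figure D2:**
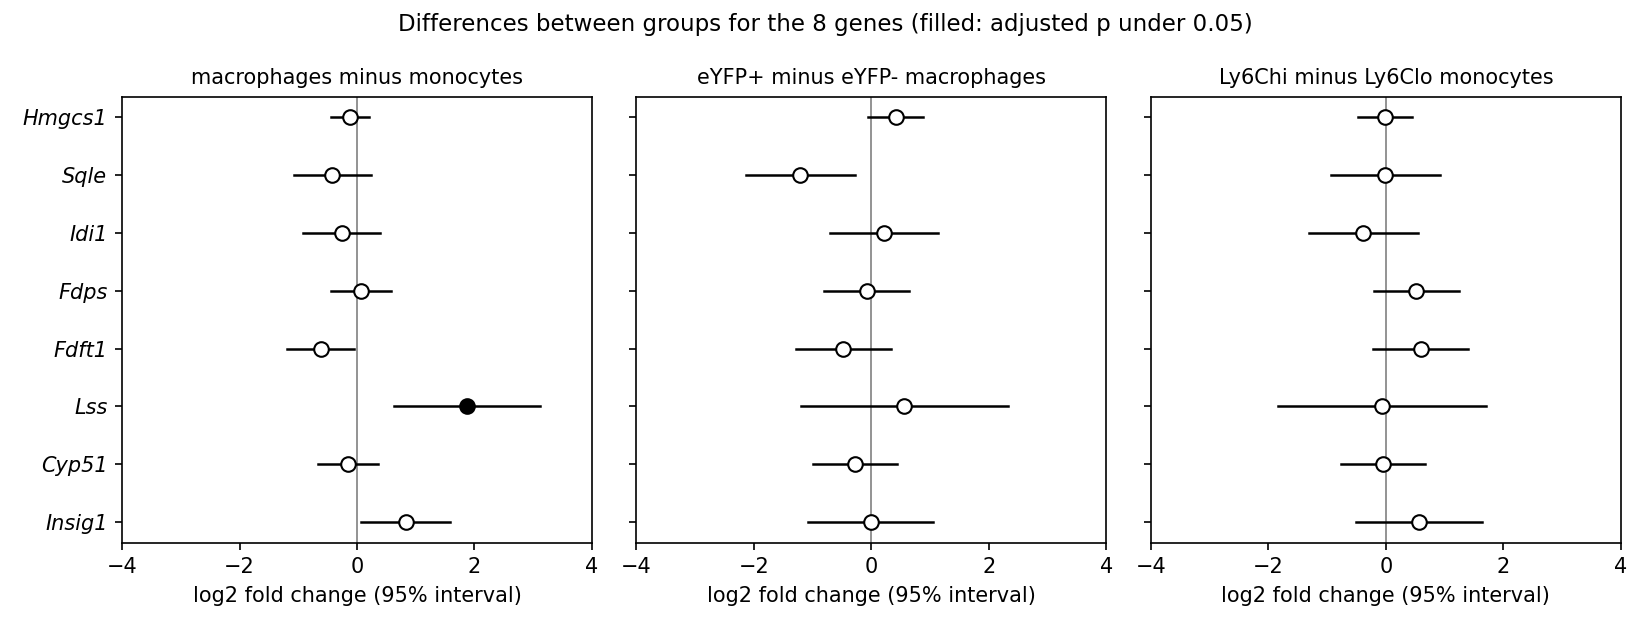
Log2 fold change (horizontal axes) of the 8 genes in 3 contrasts, each fitted on all 12 libraries, with points at the DESeq2 estimate, bars for the 95% interval and filled points for adjusted p under 0.05. The only filled point is Lss in macrophages minus monocytes, at 1.87, and the intervals of Lss are the widest in every panel.

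When each macrophage group was set against each monocyte group, 1 of 32 gene-by-pair tests passed. The background was 24.5% of genes for eYFP+ macrophages against Ly6Chi monocytes, 28% for eYFP+ against Ly6Clo, 27.4% for eYFP- against Ly6Chi and 26.3% for eYFP- against Ly6Clo. The test that passed was Fdft1 in eYFP+ macrophages against Ly6Chi monocytes, with 207 ± 47.0 against 463 ± 136 normalised counts (SD, n = 3), 2.23-fold lower in the macrophages (log2 difference -1.16 ± 0.41 (SE), DESeq2 adjusted p = 0.0235, edgeR adjusted p = 0.0412). Lss was higher in the macrophage group in all 4 pairs, with no overlap of libraries, by 2.95- to 4.53-fold, and no pair passed by itself (DESeq2 adjusted p from 0.0606 to 0.204). Insig1 differed by 1.45- to 2.17-fold in the same direction, with DESeq2 adjusted p from 0.12 to 0.563. Pairs that share a group are not independent of each other.

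The comparison of eYFP+ with eYFP- macrophages asks whether macrophages of embryonic and adult origin differ. None of the 8 genes passed, by DESeq2 or edgeR (1 of 8 had an unadjusted p under 0.05 by each), where 2.04% of all genes were called by DESeq2. The gene with the unadjusted p was Sqle, with 250 ± 95.9 normalised counts in eYFP+ and 577 ± 151 in eYFP- macrophages (SD, n = 3). Its log2 difference was -1.21 (interval -2.14 to -0.28), a 2.31-fold lower level in eYFP+ cells without overlap of the libraries, with DESeq2 adjusted p = 0.255. The difference was -0.93 without both libraries that stand apart (DESeq2 adjusted p = 0.235), and eYFP+ replicate 1 was the lowest of the 6. Lss did not overlap between these groups either, with 716 against 486 normalised counts, but its log2 difference of 0.56 had an interval of -1.20 to 2.32. Among 64 other genes of cholesterol handling, described below, 4 were higher and 4 lower in eYFP+ cells without overlap. The share of all genes that separate in this way was not counted. All 4 groups share 1 dispersion per gene in this fit, monocytes included.

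For the other 6 genes the log2 difference between eYFP+ and eYFP- macrophages lay between -0.48 (Fdft1) and 0.41 (Hmgcs1). Hmgcs1 was at 1547 against 1164 normalised counts, with an interval of -0.05 to 0.87. Without both libraries that stand apart, the difference of Idi1 went from 0.21 to -0.36, that of Fdps from -0.08 to -0.52 and that of Insig1 from -0.02 to 0.33, none of them called. With all libraries, Insig1 means were almost equal, 2502 and 2529 normalised counts, but the eYFP+ libraries ran from 1097 to 3504 and the eYFP- libraries only from 2472 to 2592. The macrophage groups differed in other respects: 12 of 20 proliferation genes and 6 of 10 neutrophil and granulocyte precursor genes were lower in eYFP+ cells by DESeq2 (3 and 1 by edgeR). Over all genes, 2.04% (439) were called by DESeq2 in this contrast, and 64 genes by edgeR. Summed proliferation genes were at 334 to 478 TPM in eYFP+ and at 890 to 1366 TPM in eYFP- macrophages, and the neutrophil and precursor genes at 123 to 201 and 265 to 2704 TPM. The erythroid sum was also lower in eYFP+ cells, at 9016 to 14520 against 22467 to 35322 TPM. By DESeq2, 2 of 11 erythroid genes, 2 of 9 lymphocyte genes and 3 of 4 monocyte identity genes with an adjusted p were lower. By edgeR, 0, 1 and 1 were lower in that order. Of 6 macrophage identity genes, 0 were called. Sqle moved in the same direction as the lower lists, and their part in it was not tested.

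In monocytes, none of the 8 genes differed between Ly6Chi and Ly6Clo cells by DESeq2 or edgeR (0 of 8 had an unadjusted p under 0.05 by either), against 8.62% of all genes by DESeq2. The log2 difference, Ly6Chi minus Ly6Clo, was largest for Fdft1 (0.59, interval -0.21 to 1.4), Insig1 (0.56, interval -0.51 to 1.64) and Fdps (0.52, interval -0.21 to 1.25). Without both libraries that stand apart it was 0.42, 0.13 and 0.46 in that order. Hmgcs1, Sqle and Cyp51 differed by no more than 0.06, and Idi1 by -0.38. Lss, with its single count in Ly6Clo replicate 2, had a log2 difference of -0.06 with all libraries and of -0.64 without both that stand apart (DESeq2 adjusted p = 0.324), and its alternatives ran from -0.64 to 0.85.

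The 64 other genes of cholesterol handling were listed by role. Between macrophages and monocytes, 21 were higher and 10 lower in macrophages by DESeq2, and 17 and 7 by edgeR. Their median log2 difference was 0.29, against 0.08 over all genes tested, of which 35.4% were called. Of 8 genes of efflux, storage and oxysterols, 4 were higher in macrophages and 1 was lower. Nr1h3, which encodes the receptor LXR alpha, was at 358 ± 20.4 and 318 ± 5.55 TPM in eYFP+ and eYFP- macrophages against 5.90 ± 1.58 and 34.9 ± 8.42 TPM in Ly6Chi and Ly6Clo monocytes (log2 difference 4.46, DESeq2 adjusted p = 4.11e-92). Abca1, the exporter that loads cholesterol onto apolipoprotein, was at 29 ± 7.68 and 17.9 ± 13.2 TPM against 0.764 ± 0.167 and 2.82 ± 1.18 TPM (log2 difference 3.83, DESeq2 adjusted p = 7.28e-30). Soat1, which esterifies cholesterol for storage, was lower in macrophages (log2 difference -0.92, DESeq2 adjusted p = 0.00188).

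Of 5 genes of lysosomal release and transport, 2 were higher and none lower, with a median log2 difference of -0.07 over the 5. Lipa, the lysosomal acid lipase that frees cholesterol from its esters, was at 1297 ± 298 and 952 ± 79.0 TPM in eYFP+ and eYFP- macrophages and at 174 ± 30.9 and 267 ± 46.8 TPM in Ly6Chi and Ly6Clo monocytes (log2 difference 2.28, DESeq2 adjusted p = 2.42e-24). Npc1, which moves the freed cholesterol out of the lysosome, was higher by 1.11 (DESeq2 adjusted p = 0.000112). Among 8 genes of lipoprotein uptake, 4 were higher in macrophages by DESeq2 and 3 by edgeR. Mylip, which encodes a ubiquitin ligase that LXR switches on, was higher (1.15, DESeq2 adjusted p = 0.000604), as was the receptor gene Lrp8 (3.73, DESeq2 adjusted p = 5.99e-13).

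**Figure D3:**
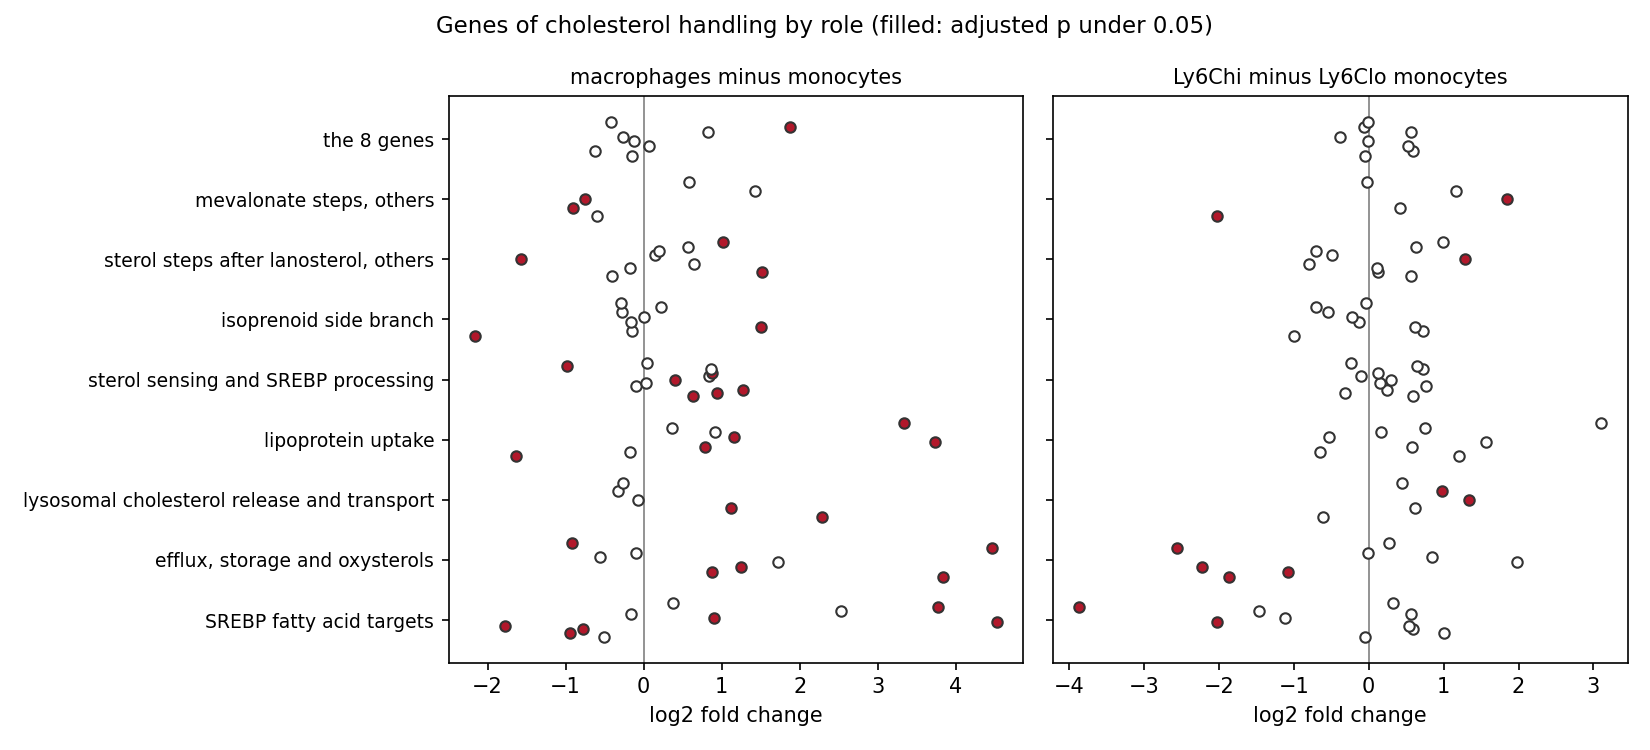
Log2 fold change (horizontal axes) of the 8 genes and the 64 other genes by role (rows) in macrophages minus monocytes and in Ly6Chi minus Ly6Clo monocytes, 1 circle per gene, filled where DESeq2 adjusted p is under 0.05. Synthesis rows lie mostly within 2 log2 units of 0 on the left, while the efflux row reaches 4.46 (Nr1h3), the fatty acid row 4.53 (Fads1) and the uptake row 3.73 (Lrp8).

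The other synthesis genes were mixed. Among the further mevalonate genes, Mvd was called lower in macrophages as the mean of both groups (log2 difference -0.75, DESeq2 adjusted p = 0.0443, edgeR adjusted p = 0.0546, called in 5 of 21 alternatives, and 0.0507 by DESeq2 without eYFP+ replicate 1). Its mean was 1157 and 983 normalised counts in eYFP+ and eYFP- macrophages, 3402 in Ly6Chi and 950 in Ly6Clo monocytes, so both macrophage means lay below the Ly6Chi mean. The Ly6Clo libraries were at 1314, 338 and 1198 normalised counts, with the lowest in replicate 2, and without that library the log2 difference was -1.01 (DESeq2 adjusted p = 6.36e-10). Of 9 further steps after lanosterol, 2 were higher and 1 lower by DESeq2. Dhcr7, the last reductase of one branch, was higher by 1.51 (DESeq2 adjusted p = 1.11e-11), Tm7sf2 was higher by 1.01 (DESeq2 adjusted p = 0.0284, edgeR adjusted p = 0.0654, called in 13 of 21 alternatives) and Lbr, a nuclear envelope protein with sterol reductase activity like that of Tm7sf2, was lower (-1.57, DESeq2 adjusted p = 5.91e-06). In the isoprenoid side branch 1 of 8 was higher (Fntb, 1.5, DESeq2 adjusted p = 1.03e-07) and 1 lower (Coq2, -2.16, DESeq2 adjusted p = 2.27e-08). Among 10 fatty acid genes that SREBPs also control, 3 were higher, with Fads1 (4.53, DESeq2 adjusted p = 5.18e-20) and Scd1 (3.77, DESeq2 adjusted p = 4.76e-06) at the lowest p, and 3 lower, with Elovl6 (-1.78, DESeq2 adjusted p = 3.11e-07) and Acly (-0.94, DESeq2 adjusted p = 0.0267, called in 9 of 21 alternatives) at the lowest p. Scd1 was near the floor, with group means of 0.895 (eYFP+), 1.30 (eYFP-), 0.0197 (Ly6Chi) and 0.297 TPM (Ly6Clo). Its log2 difference ran from 0.86 to 4.74 in the alternatives.

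Of 11 genes that sense sterols and process SREBPs, 5 were higher in macrophages and 1 lower by DESeq2, and 4 were higher by edgeR. Srebf2, the gene of SREBP2 itself, was the lower one, at 1384 against 2776 normalised counts (log2 difference -0.98, DESeq2 adjusted p = 0.0467, edgeR adjusted p = 0.0686), and was called in 5 of 21 alternatives. Srebf2 was lowest in the libraries that stand apart, at 5.27 TPM in eYFP+ replicate 1 and 5.02 in Ly6Clo replicate 2, and without both of these it passed at DESeq2 adjusted p = 1.35e-08, while leaving out eYFP+ replicate 1 alone gave 0.111. Scap was higher by 0.88 (DESeq2 adjusted p = 0.00958, and 0.0733 without eYFP+ replicate 3), and Insig2, the relative of Insig1, by 0.94 (DESeq2 adjusted p = 0.00249, called in all 21 alternatives). March6, which encodes a ligase that marks squalene epoxidase for breakdown, was higher by 1.28 (DESeq2 adjusted p = 0.00747, but 0.0763 without eYFP+ replicate 3 and 0.0554 without eYFP- replicate 2). Srebf1 had a log2 difference of 0.86 that did not pass (DESeq2 adjusted p = 0.19).

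**Figure D4:**
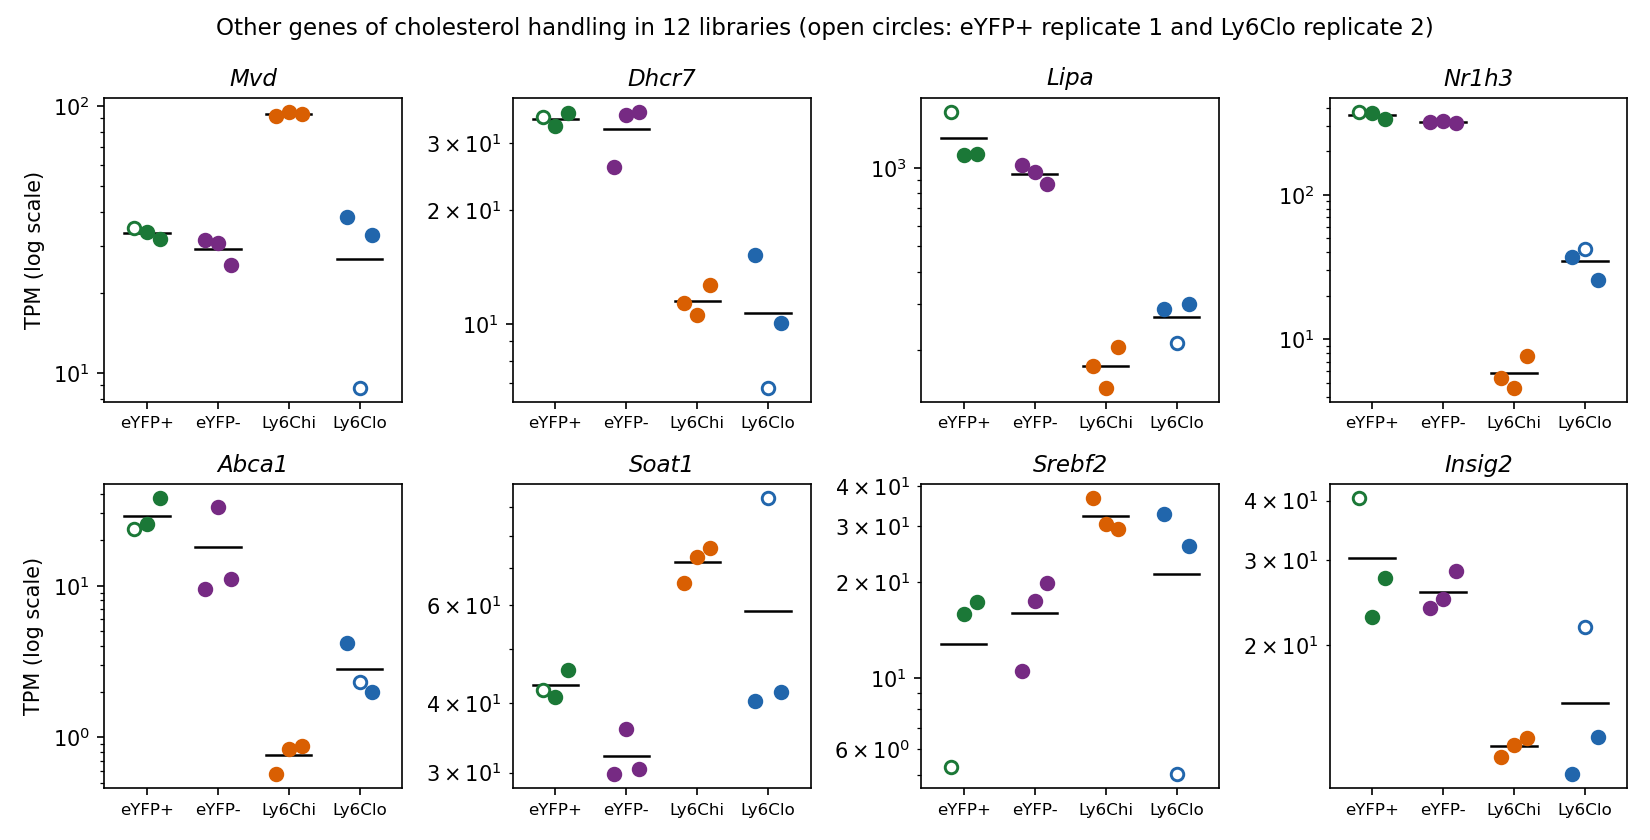
TPM (log-scaled vertical axes) of 8 other genes of the pathway in each library of the 4 groups (horizontal axes), with 1 circle per library and a line at the arithmetic group mean. Mvd is highest in Ly6Chi monocytes (92.0 to 95.1 TPM), and Lipa, Nr1h3 and Dhcr7 are higher in all macrophage libraries than in all monocyte libraries.

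Between the monocyte groups, 4 of the 63 other genes with an adjusted p were higher in Ly6Chi cells and 7 were lower by DESeq2 (2 and 4 by edgeR). Over all genes, 8.62% (1860) were called by DESeq2 in this contrast, and 829 genes by edgeR. Mvd, the decarboxylase that ends the mevalonate part of the pathway, was at 92.0, 95.1 and 93.2 TPM in Ly6Chi against 38.4, 8.81 and 32.8 in Ly6Clo monocytes (log2 difference 1.84, DESeq2 adjusted p = 0.00094), and it was called in all 16 alternatives. Npc2, a carrier of cholesterol in the lysosome, was also higher in Ly6Chi cells in all 16 (1.34, DESeq2 adjusted p = 0.00293). Stard3 (0.98) and Lbr (1.28) were higher by DESeq2 and not by edgeR, and were called in 4 and 6 of 16 alternatives. The efflux genes Nr1h3 (-2.57), Apoe (-2.23), Abca1 (-1.87) and Abcg1 (-1.08) were lower in Ly6Chi cells by both tools. Acat2 (-2.02), Fads1 (-2.02) and Scd1 (-3.87) were lower by DESeq2 and not by edgeR, and were called in 6, 8 and 8 of 16 alternatives. Scd1 averaged only 1.97 normalised counts in Ly6Chi and 28.2 in Ly6Clo cells. Without Ly6Clo replicate 2 the difference of Acat2 was -0.80 (DESeq2 adjusted p = 0.413), and it was -0.80 without both libraries that stand apart (DESeq2 adjusted p = 0.12).

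Between the macrophage groups, 1 of 63 other genes with an adjusted p was called by DESeq2, against 2.04% of all genes tested. That gene, Fads2, was not called by edgeR. This fatty acid desaturase was at 0.468, 0.494 and 0.906 TPM in eYFP+ against 2.53, 3.40 and 4.45 in eYFP- macrophages. The eYFP+ libraries all lay below the eYFP- libraries, with a log2 difference of -2.45 (DESeq2 adjusted p = 4.63e-05, edgeR adjusted p = 0.069).

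The 8 genes did not share one profile across the libraries. Each gene's level on log2(TPM + 1) was scaled over the 12 libraries and averaged over the 8, and Pearson's r of single members with that average ran from -0.01 (Hmgcs1) to 0.67 (Cyp51), although each is part of the average. The average was highest in Ly6Chi replicate 1 (0.74) and Ly6Clo replicate 1 (0.63) and lowest in Ly6Clo replicate 2 (-0.96), so it spread as widely within a group as between groups. Among 10668 other genes, the 6 with the highest r to it over 12 libraries were Tmem116 (0.81), Riox1 (0.80), Zfp949 (0.79), Ccdc18 (0.79), Tpcn1 (0.78) and Kif18b (0.78). These libraries share depth and cell group, and the values are a description.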

How the data were processed

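The authors sorted bone marrow myeloid cells into lysis reagent, amplified full-length cDNA from small RNA amounts and tagmented it for paired-end sequencing. Per the labels and methods, bases were called with bcl2fastq 2.20.0.422, reads were aligned to GRCm39 and fragments were counted per gene with featureCounts. The use of strand was not given in the sources used here. The deposited tables hold raw counts and TPM per gene, the latter scaled by the authors to gene length and library total. A table of variance-stabilised values was not used. Counts were tested with DESeq2 1.42.0 (Wald test, 4 groups in 1 fit of 12 libraries, median-of-ratios size factors, Benjamini-Hochberg adjusted p under 0.05), as in the study's methods, and with edgeR 4.0.16 (quasi-likelihood) as the main alternative, in R 4.3.3. Fold changes are unshrunken, and intervals are 95%. limma 3.58.1 was run on log2(TPM + 1) and log2(TPM + 0.1). Scripts were tested on simulated counts. Symbols came from a gene name table, which held 134 of 135 listed genes (91.4% of all rows had a symbol). No 2 libraries were identical.

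The members and gene lists were chosen with earlier results of these data known. The 8 members are named whatever their values. From each pathway list up to 2 higher and 2 lower genes with the lowest adjusted p and at least 50 normalised counts on average were named for macrophages minus monocytes, as were all genes called in the other 2 main contrasts, the 4 genes Srebf1, Srebf2, Scap and Insig2, and the 6 genes most like the members. Some genes of these lists are not reported here.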

Additional observations from a re-analysis of the deposited data

How the results depend on the processing

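For macrophages minus monocytes, the number of the 8 genes called was 1 in DESeq2, 0 in edgeR, 1 to 2 when any library was left out and 3 without both libraries that stand apart, an alternative chosen after seeing the data. It was 1 with TMM or total-count scaling, the count filter, no independent filtering and limma. For eYFP+ minus eYFP- macrophages and for Ly6Chi minus Ly6Clo monocytes it was 0 in every alternative run. When a library was left out, 19 of the 192 values of the 8 genes in these contrasts changed sign, and no called value reversed. With the replicate number as a block, the 4 pairs gave 2 calls in place of 1 (Lss in eYFP+ macrophages against Ly6Clo monocytes joined Fdft1), and the 3 main contrasts gave the same numbers of members called. The numbers did not pair the samples: same-numbered deviations correlated between 0.0466 and 0.134 in macrophages and between -0.0314 and -6.09e-05 in monocytes.

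Counts over all genes moved more. For eYFP+ minus eYFP- macrophages, 439 genes were called, against 64 with edgeR, 175 with limma on log2(TPM + 0.1), 678 in a fit of those 6 libraries, 1155 with the replicate block, 228 without eYFP- replicate 3 and 995 without both libraries that stand apart. For the monocyte groups, 1860 were called, against 829 with edgeR, 1219 and 1097 with limma, 1186 in the fit of 6 libraries, 1228 without Ly6Chi replicate 1 and 1208 without Ly6Chi replicate 2. The cause was not tested. Lss had 1 count in Ly6Clo replicate 2, a library of 26390927 counts.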
